A study of Mus musculus with 24 samples.

Results

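The genes described here are 10 writers and erasers of methylation on lysine 27 of histone H3 (H3K27), taken by symbol from a deposited table of 24043 genes. They are the catalytic subunits Ezh1 and Ezh2 of Polycomb repressive complex 2 (PRC2), its core subunits Eed, Suz12 and Rbbp7, its accessory subunits Jarid2, Mtf2 and Phf19, and the H3K27 demethylases Kdm6a and Kdm6b. All 10 were found, and all 10 reached the level required for testing. RNA was sequenced from C2C12, an established mouse myoblast line that divides in serum-rich growth medium and fuses into multinucleated myotubes after serum is reduced. The design crossed growth medium or differentiation medium with 21% oxygen (normoxia) or 2% oxygen (hypoxia), which gives 4 groups of 2 libraries, replicates A and B, described by the submitters as biological replicates. Growth medium held fetal bovine serum, and differentiation medium held horse serum with insulin, transferrin and selenium. No gene was altered and no agent other than the medium and the oxygen level was given in any group. The lengths of differentiation and of hypoxia are not given in the sources used here. All libraries come from this 1 cell line, and no primary muscle cells were included. The series also holds 8 H3K27me3 chromatin libraries and 8 input libraries, which were not analysed here, so no methylation level stands beside the expression values.

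PRC2 adds methyl groups to H3K27, and the trimethylated form marks silenced genes. Ezh1 and Ezh2 are alternative methyltransferases of the complex. Ezh2 is the form usually abundant in dividing cells, and Ezh1 is the form known to persist in resting and differentiated cells, muscle included. Eed binds the trimethylated mark and stimulates the enzyme, Suz12 holds the complex together, Rbbp7 is a histone-binding WD-repeat protein, and Jarid2, Mtf2 and Phf19 help to bring the complex to its targets. Kdm6a (UTX) and Kdm6b (JMJD3) remove the mark and are oxygen-dependent dioxygenases. In muscle, some of the silenced genes lose the mark when myoblasts differentiate.

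In the hypoxic differentiation group the replicates stood apart. Of 12389 tested genes, 613 (4.95%) differed more than 2-fold between its replicates A and B on the log2(FPKM + 1) scale, against 56 to 71 genes in the other groups. FPKM are fragments scaled by the length of the transcript and by the total mapped in the library, so levels can be compared between genes. Library sums were 480018 to 534167 FPKM. Absolute depth is not known, and relative depth, read from the smallest steps of low values, was 0.633 to 0.899 of that of hypoxic differentiation replicate A. Replicate A was thus the deepest library, and replicate B of the same group, at 0.633, the shallowest. Myotube markers (7 genes such as Myog and Ckm) summed to 7655 and 7674 FPKM in normoxic differentiation medium but to 17.4 and 9.72 FPKM in hypoxic differentiation medium, so that group is named by its medium and not by a myotube state. The 4 myoblast markers summed to between 56.4 and 85.8 FPKM there, against 386.8 to 778.1 FPKM in the normoxic groups. In hypoxic growth medium they summed to 107.4 and 114.2 FPKM, so both hypoxic groups lay below both normoxic ones. Markers of endothelial, blood, epithelial, fat and glial cells summed to at most 1.24 FPKM in any library. In bulk samples such as these, fewer cells of a type and less RNA per cell cannot be told apart.

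Across the 10 genes, 4 effects were kept under every alternative setting tried: Ezh1 was lower in differentiation medium at both oxygen levels, Kdm6b was higher in normoxic differentiation medium and in hypoxic growth medium than in normoxic growth medium, Rbbp7 was lower in hypoxia in both media, and Eed was higher in hypoxia in differentiation medium. With limma and Benjamini-Hochberg adjustment over all tested genes, 3 of 10 passed an adjusted p of 0.05 for differentiation against growth medium in normoxia (1 higher, 2 lower), where 66.5% of all tested genes passed (25.5% higher, 41% lower). In hypoxia the same medium comparison called 2 of 10 (both lower), against 40.9% of all genes (23.3% higher, 17.6% lower). Hypoxia against normoxia called 3 of 10 in growth medium (1 higher, 2 lower) against 41.4% of all genes (13.5% higher, 28% lower), and 4 of 10 in differentiation medium (3 higher, 1 lower) against 65.2% (37.5% higher, 27.7% lower). The medium by oxygen interaction, which is the medium change at 2% oxygen minus that at 21% oxygen, called 1 of 10 (lower) against 54.1% of all genes (35.4% higher, 18.7% lower). In differentiation against growth medium at 21% oxygen the split turned with the scaling, to 5 higher and 1 lower with median-of-ratios scaling and 3 higher and 1 lower with upper-quartile scaling. The counts also rest on single libraries. Leaving out hypoxic differentiation replicate A or B leaves that group with 1 library, so calls on it from such fits do not measure its spread. Without replicate A or B of that group, which enter only the shared spread there, hypoxia in growth medium called 6 of 10 against 55.0% and 55.4% of all genes. Median changes of the 10 genes, in the same order, were 0.07, 0.13, -0.06, 0.33 and 0.26 on the log2 scale. Over all tested genes they were -0.20, 0.07, -0.14, 0.15 and 0.27. The comparisons share libraries and are not independent of each other.

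**Figure D1:**
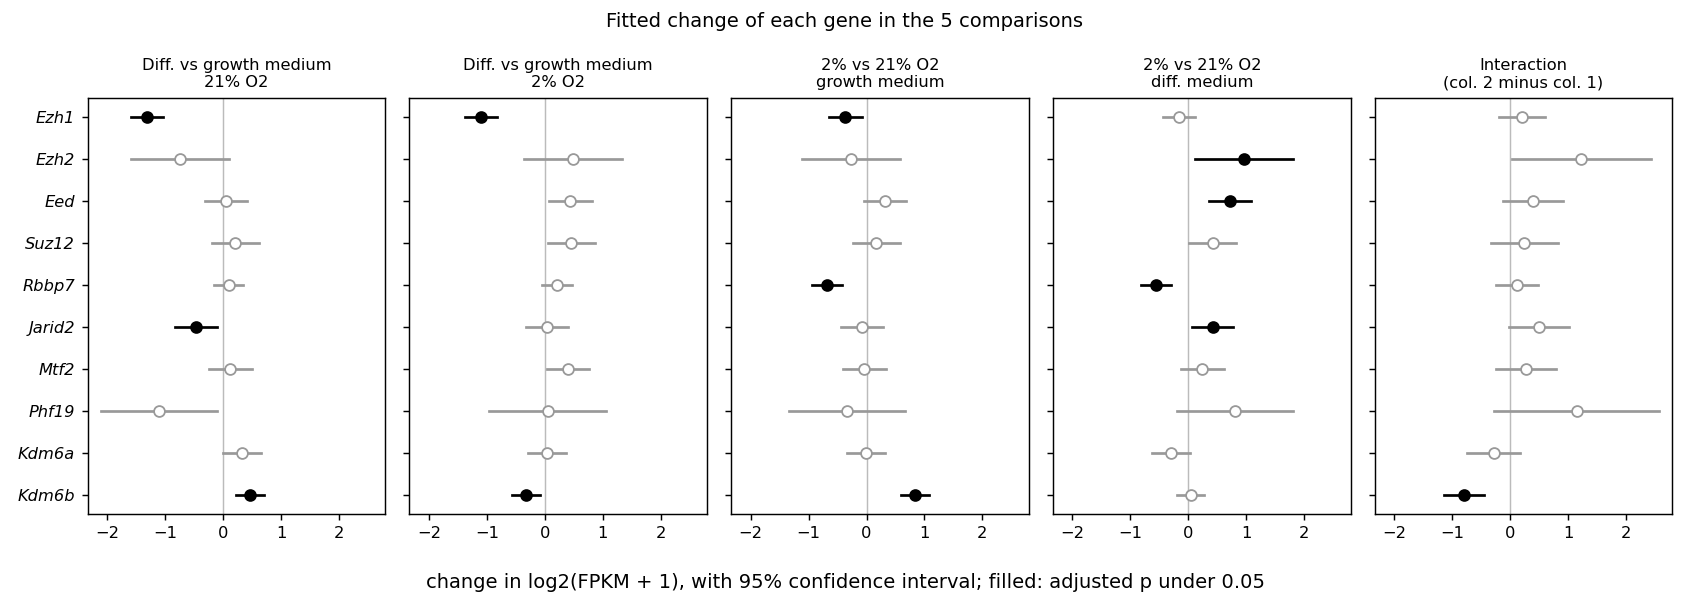
Fitted change of the 10 genes in the 5 comparisons, as a difference in log2(FPKM + 1) with its 95% confidence interval from limma; filled points have an adjusted p under 0.05. Ezh1 lies to the left in both medium comparisons (-1.31 and -1.10), and Kdm6b moves in opposite directions with medium at the 2 oxygen levels (0.47 and -0.33).

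Ezh1 had 39.8 and 35.9 FPKM (replicates A and B) at 21% oxygen and 28.5 and 29.8 FPKM at 2% oxygen in growth medium, against 15.3 and 14.0 FPKM at 21% oxygen and 14.5 and 11.7 FPKM at 2% oxygen in differentiation medium. Every growth-medium library lay above every differentiation-medium library, and the differentiation groups overlapped. The level in normoxic differentiation medium was 2.59-fold lower than in growth medium (log2 change -1.31 ± 0.12 SE, adjusted p = 9.84e-05). At 2% oxygen it was 2.23-fold lower in differentiation medium (-1.10 ± 0.12 SE, adjusted p = 0.000991). The interaction was 0.21 ± 0.17 SE (adjusted p = 0.322), so the medium effect was not shown to differ between oxygen levels. Hypoxia lowered Ezh1 1.30-fold in growth medium (-0.36 ± 0.12 SE, adjusted p = 0.0459). That call was lost in 9 of 16 alternatives, among them median-of-ratios scaling (-0.25, adjusted p = 0.228), upper-quartile scaling (-0.17, adjusted p = 0.387) and leaving out any 1 library outside the hypoxic differentiation group (adjusted p from 0.0683 to 0.192). In differentiation medium the change with hypoxia was -0.16, with a 95% confidence interval from -0.44 to 0.12 (adjusted p = 0.276).

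Ezh2 had 12.3 and 12.7 FPKM at 21% oxygen and 10.6 and 9.91 FPKM at 2% oxygen in growth medium, against 7.07 and 7.08 FPKM at 21% oxygen and 9.17 and 23.3 FPKM at 2% oxygen in differentiation medium. The last group holds both a library below every growth-medium library and the highest library of all. Normoxic differentiation medium lay 1.77-fold below normoxic growth medium (-0.74 ± 0.35 SE, adjusted p = 0.104), with no overlap between the libraries. Without hypoxic differentiation replicate A or B, which are in neither group but enter the shared estimate of spread, the adjusted p of this change was 0.000174 or 0.000153. Hypoxic differentiation medium was 2.29-fold above normoxic differentiation medium (0.96 ± 0.35 SE, adjusted p = 0.0491), a call lost in 10 of 16 alternatives, 6 of which left out 1 library outside the hypoxic differentiation group (adjusted p from 0.0779 to 0.16). The fold is a ratio of mean FPKM and exceeds the fold that the log2 change of 0.96 stands for. The size of the log2 change rests on replicate B: it was 1.59 without replicate A and 0.33 without replicate B. Each of these fits leaves 1 library in the hypoxic differentiation group and cannot measure its spread. The medium change in hypoxia was 0.48 (adjusted p = 0.319), 1.11 without replicate A and -0.15 without replicate B, so its direction rests on 1 library. The interaction was 1.23 ± 0.50 SE (adjusted p = 0.078), with values of 1.85 and 0.60 without replicate A and replicate B.

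**Figure D2:**
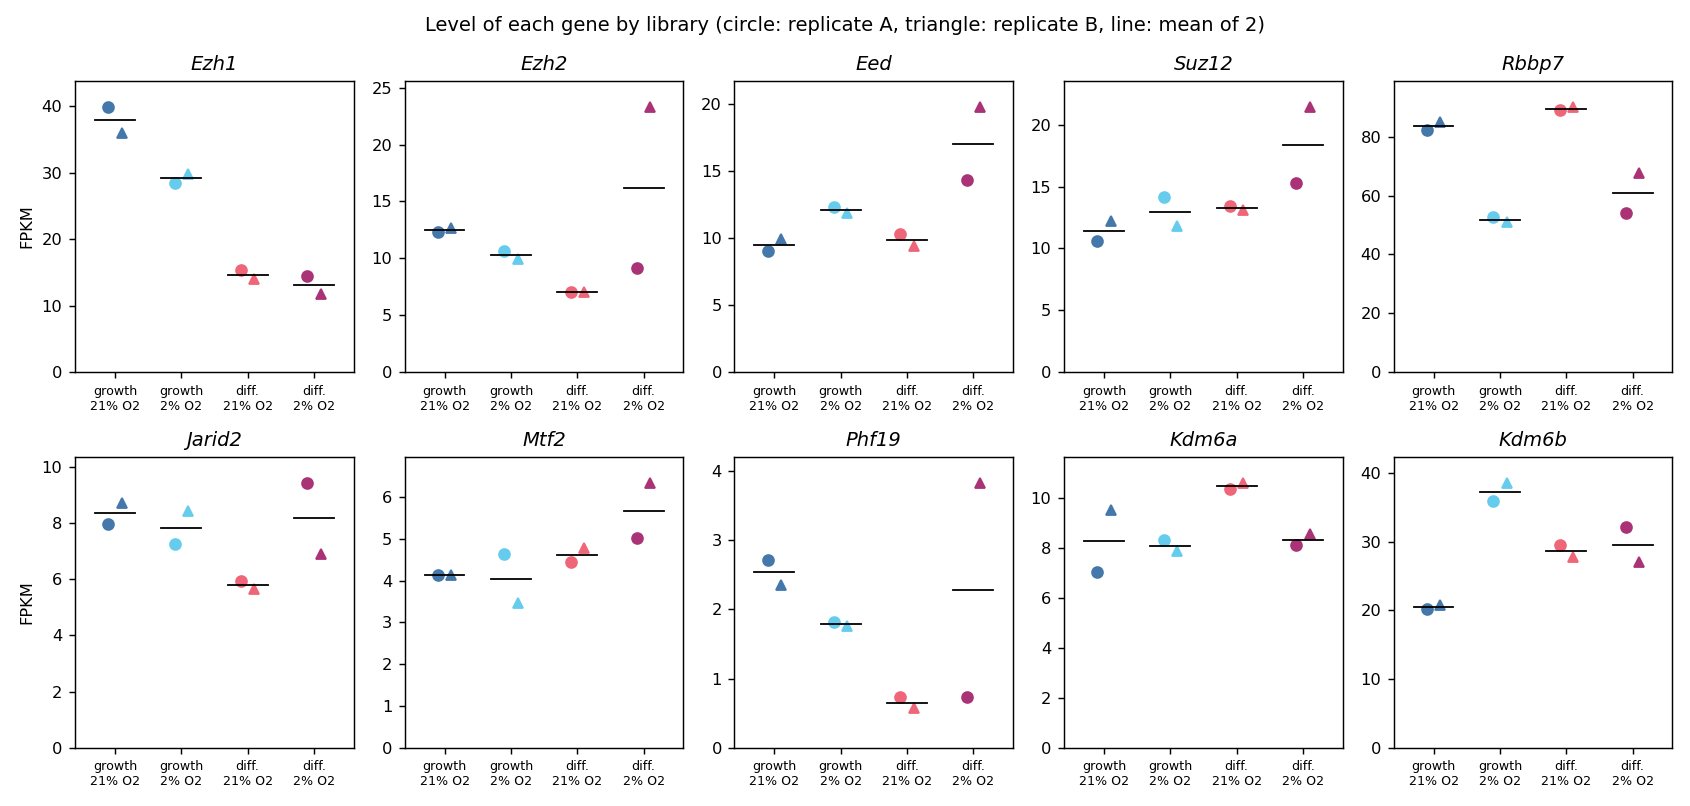
Level of each gene in FPKM, linear axes from 0, in the 4 groups (diff., differentiation medium); circles are replicate A, triangles replicate B and lines the mean of 2. Ezh1 falls from about the level of 39.8 FPKM in normoxic growth medium to 11.7 FPKM in a hypoxic differentiation library, and Ezh2 and Phf19 show a wide gap between the hypoxic differentiation replicates.

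Because both genes encode the same catalytic activity, their ratio gives the balance of the 2 forms in messenger RNA. Ezh1 exceeded Ezh2 in 7 of 8 libraries. The ratio of Ezh1 to Ezh2 was 3.22 and 2.83 in growth medium at 21% oxygen, 2.69 and 3.01 there at 2% oxygen, and 2.16 and 1.98 in differentiation medium at 21% oxygen. In hypoxic differentiation medium it was 1.58 in replicate A and 0.503 in replicate B, which is the only library with more Ezh2 than Ezh1. The group means were 3.02 ± 0.280, 2.85 ± 0.227, 2.07 ± 0.130 and 1.04 ± 0.760 (SD, n = 2 each). Growth-medium libraries all lay above differentiation-medium libraries. The log2 ratio, with 1 FPKM added to each gene, changed by -0.57 with differentiation medium in normoxia and by -1.59 in hypoxia. With 2 libraries per group an exact two-sided permutation test cannot go below p = 0.333, and it gave that value for both medium comparisons (adjusted p = 0.556 over the 5 comparisons). Hypoxia changed the log2 ratio by -0.10 in growth medium (exact permutation p = 0.667) and by -1.12 in differentiation medium (exact permutation p = 0.333). The interaction was -1.02 (exact permutation p = 0.444, smallest possible 0.0556). That test shuffled medium labels within each oxygen level, so it asks whether medium has no effect at either level. It cannot decide whether the medium effect differs with oxygen. The change with hypoxia in differentiation medium was -1.89 without replicate A of the hypoxic group and -0.35 without replicate B. The summed level of both genes was 52.1 and 48.6 FPKM at 21% oxygen and 39.1 and 39.7 FPKM at 2% oxygen in growth medium, against 22.3 and 21.1 FPKM at 21% oxygen and 23.7 and 35.0 FPKM at 2% oxygen in differentiation medium. Between normoxic growth and differentiation medium, mean Ezh1 went from 37.8 ± 2.75 to 14.6 ± 0.909 FPKM and mean Ezh2 from 12.5 ± 0.249 to 7.07 FPKM (SD, n = 2 each).

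**Figure D3:**
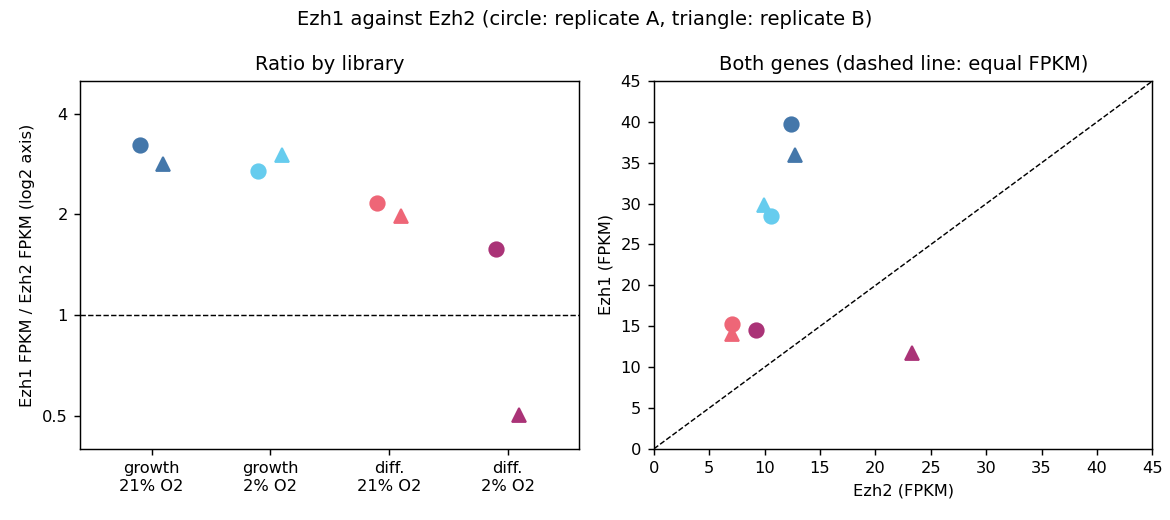
Left, Ezh1 FPKM divided by Ezh2 FPKM in each library on a log2 axis; right, the level of Ezh1 against that of Ezh2, with the dashed line at equal levels. The 4 growth-medium libraries lie between 2.69 and 3.22, and hypoxic differentiation replicate B, at 0.503, is the only point below the line.

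The sequences of the start-site windows are shown for Ezh1 and Ezh2, the pair compared in the ratio, for Phf19, which had the widest range over the 8 libraries (6.73-fold), and for Kdm6a, whose window holds the most matches to a hypoxia-type motif. Each is 300 bases from RefSeq, 250 before to 50 after the start, on the GRCm38.p6 build; 9 of the 10 genes were in that table, as 11 windows, and Kdm6b was not. Capitals mark motif matches on either strand. The motifs were the hypoxia response core ACGTG (held by 19.6% of 32851 windows of this length), the E2F-type core GCGGGAA (4.6%), the MyoD-type E-box CAGCTG (16.3%) and the longer E2F-type TTTGGCGC (0.514%), which was added after the windows had been read. The Ezh1 window, chr11:101226414-101226713 on the minus strand, held none of them. The Ezh2 window, chr6:47594981-47595280 on the minus strand, held CACGT 246 bases before the start and TTTGGCGC 3 bases after it. The Phf19 window, chr2:34913927-34914226 on the minus strand, held GCGGGAA 208 bases before the start. The Kdm6a window, chrX:18162325-18162624 on the plus strand, held ACGTG 159 bases before the start and a CACGTG, in which both orientations overlap, 27 bases before it. Among the windows not shown, that of Suz12 held the E2F-type core 218 bases before the start. Jarid2 held the hypoxia response core and the E-box in separate windows, and Mtf2 and Rbbp7 each held an E-box. A match is a description of letters and no evidence of binding.
Ezh1: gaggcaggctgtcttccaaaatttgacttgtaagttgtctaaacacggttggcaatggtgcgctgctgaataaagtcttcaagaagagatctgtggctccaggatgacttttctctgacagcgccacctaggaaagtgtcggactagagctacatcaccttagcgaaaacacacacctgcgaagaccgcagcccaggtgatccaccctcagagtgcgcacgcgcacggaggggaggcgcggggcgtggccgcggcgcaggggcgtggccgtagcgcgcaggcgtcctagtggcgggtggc
Ezh2: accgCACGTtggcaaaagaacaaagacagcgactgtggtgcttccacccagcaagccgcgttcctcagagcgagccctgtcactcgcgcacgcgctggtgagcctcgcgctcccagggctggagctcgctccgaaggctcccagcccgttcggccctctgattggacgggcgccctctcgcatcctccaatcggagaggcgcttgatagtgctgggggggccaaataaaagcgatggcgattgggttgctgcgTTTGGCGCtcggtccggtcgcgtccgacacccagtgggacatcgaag
Phf19: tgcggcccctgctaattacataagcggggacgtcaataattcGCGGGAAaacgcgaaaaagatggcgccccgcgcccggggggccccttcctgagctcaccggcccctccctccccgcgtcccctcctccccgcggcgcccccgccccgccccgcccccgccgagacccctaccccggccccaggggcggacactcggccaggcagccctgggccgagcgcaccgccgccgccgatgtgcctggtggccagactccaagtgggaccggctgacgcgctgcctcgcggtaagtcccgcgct
Kdm6a: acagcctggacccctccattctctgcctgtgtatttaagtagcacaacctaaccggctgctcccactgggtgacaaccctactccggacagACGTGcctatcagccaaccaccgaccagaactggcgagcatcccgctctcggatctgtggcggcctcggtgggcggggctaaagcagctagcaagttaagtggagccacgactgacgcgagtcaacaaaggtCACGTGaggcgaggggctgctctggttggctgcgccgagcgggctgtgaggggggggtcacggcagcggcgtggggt

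Of the core subunits, Rbbp7 was the most abundant gene of the 10 in every library. It had 82.3 and 85.2 FPKM at 21% oxygen and 52.7 and 51.1 FPKM at 2% oxygen in growth medium, against 89.0 and 90.0 FPKM at 21% oxygen and 54.1 and 67.6 FPKM at 2% oxygen in differentiation medium. The hypoxic libraries all lay below the normoxic ones, and no 2 groups overlapped. Hypoxia lowered it 1.61-fold in growth medium (-0.68 ± 0.11 SE, adjusted p = 0.00319) and 1.47-fold in differentiation medium (-0.56 ± 0.11 SE, adjusted p = 0.00357). The medium changes were 0.10 in normoxia (adjusted p = 0.461) and 0.22 in hypoxia (adjusted p = 0.151). The first passed under both other scalings, at 0.37 for median-of-ratios (adjusted p = 0.00625) and 0.25 for upper-quartile (adjusted p = 0.038). The second was 0.38 without hypoxic differentiation replicate A and 0.06 without replicate B.

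Eed, the subunit that reads the mark, had 8.996 and 9.96 FPKM at 21% oxygen and 12.3 and 11.9 FPKM at 2% oxygen in growth medium, against 10.3 and 9.38 FPKM at 21% oxygen and 14.3 and 19.7 FPKM at 2% oxygen in differentiation medium. Each hypoxic library lay above each normoxic one. Eed rose 1.73-fold with hypoxia in differentiation medium (0.72 ± 0.15 SE, adjusted p = 0.00543), with values of 0.94 and 0.50 when hypoxic replicate A or B was left out. In growth medium the change was 0.32 ± 0.15 SE (adjusted p = 0.134), and 0.51 with upper-quartile scaling (adjusted p = 0.0196). Suz12, the scaffold subunit, had 10.6 and 12.2, 14.2 and 11.8, 13.5 and 13.1, and 15.3 and 21.4 FPKM in the same order of groups. Its hypoxic differentiation libraries were the 2 highest. Hypoxic growth medium overlapped both normoxic groups, and normoxic differentiation medium lay above normoxic growth medium without overlap. The largest of its changes was 0.46 ± 0.17 SE with differentiation medium in hypoxia (adjusted p = 0.0696), and it passed the threshold in no comparison. That change was 0.69 without hypoxic differentiation replicate A and 0.23 without replicate B.

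Among the accessory subunits, Jarid2, which helps to recruit the complex, had 7.99 and 8.73 FPKM at 21% oxygen and 7.27 and 8.42 FPKM at 2% oxygen in growth medium, against 5.94 and 5.66 FPKM at 21% oxygen and 9.43 and 6.92 FPKM at 2% oxygen in differentiation medium. Normoxic differentiation medium was the lowest group and the other groups overlapped. It was 1.44-fold lower than normoxic growth medium (-0.46 ± 0.15 SE, adjusted p = 0.0323) and 1.41-fold lower than hypoxic differentiation medium (0.42 ± 0.15 SE, adjusted p = 0.0456). These calls were lost in 9 and 13 of 16 alternatives, including both other scalings. The call against normoxic growth medium was lost without any 1 library of the normoxic groups or hypoxic growth replicate B (adjusted p from 0.0501 to 0.142). That against hypoxic differentiation medium was lost without any 1 library except hypoxic differentiation replicate B. The change was 0.22 without replicate A of that group and 0.62 without B.

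Mtf2 encodes a Polycomb-like protein. Its level lay between 3.46 and 6.33 FPKM in the 8 libraries, with the highest and second-highest values in hypoxic differentiation medium, and no comparison passed the threshold. Phf19, a related Polycomb-like protein, had the lowest level of the 10 genes in every group. It had 2.72 and 2.35 FPKM at 21% oxygen and 1.82 and 1.77 FPKM at 2% oxygen in growth medium, against 0.731 and 0.568 FPKM at 21% oxygen and 0.730 and 3.83 FPKM at 2% oxygen in differentiation medium. Hypoxic differentiation replicate A thus matched the normoxic differentiation libraries, and replicate B exceeded all others. Normoxic differentiation medium was 3.90-fold below normoxic growth medium in mean FPKM, with a change of -1.10 ± 0.42 SE on the log2(FPKM + 1) scale, which understates changes of low genes (adjusted p = 0.0539). Without hypoxic differentiation replicate A or B, that adjusted p was 0.00011 or 8.64e-05. The medium change in hypoxia was 0.05 (adjusted p = 0.944), 0.79 without replicate A and -0.69 without replicate B.

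Of the erasers, Kdm6b had 20.2 and 20.7 FPKM at 21% oxygen and 35.9 and 38.5 FPKM at 2% oxygen in growth medium, against 29.5 and 27.8 FPKM at 21% oxygen and 32.1 and 27.01 FPKM at 2% oxygen in differentiation medium. Normoxic growth medium was the lowest group and hypoxic growth medium the highest, and the differentiation groups overlapped between them. Kdm6b rose 1.82-fold with hypoxia in growth medium (0.83 ± 0.10 SE, adjusted p = 0.00108) and 1.40-fold with differentiation medium in normoxia (0.47 ± 0.10 SE, adjusted p = 0.00579). In differentiation medium the change with hypoxia was 0.04, with a 95% confidence interval from -0.20 to 0.28 (adjusted p = 0.746). Differentiation medium lowered it 1.26-fold in hypoxia (-0.33 ± 0.10 SE, adjusted p = 0.0394), a call lost in 13 of 16 alternatives. Among these were leaving out any 1 library except hypoxic differentiation replicate A, and the change was -0.21 without replicate B of that group. The interaction of -0.79 ± 0.14 SE (adjusted p = 0.00363) tests that the medium effect differs with oxygen, and it passed in all 15 alternatives run.

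Kdm6a, the X-linked demethylase, had 7.02 and 9.52 FPKM at 21% oxygen and 8.32 and 7.87 FPKM at 2% oxygen in growth medium, against 10.4 and 10.6 FPKM at 21% oxygen and 8.13 and 8.54 FPKM at 2% oxygen in differentiation medium. Normoxic differentiation medium was highest, and the other 3 groups overlapped. It was higher by 0.32 ± 0.14 SE than normoxic growth medium (adjusted p = 0.0766) and hypoxia changed it by -0.01 in growth medium (95% confidence interval from -0.34 to 0.32), and no comparison passed. The medium change in normoxia was 0.13 without normoxic growth replicate A and 0.52 without replicate B. It passed with median-of-ratios scaling (0.57, adjusted p = 0.00951), with upper-quartile scaling (0.46, adjusted p = 0.0327) and with array weights (0.32, adjusted p = 0.0365). Suz12, Mtf2, Phf19 and Kdm6a passed the threshold in none of the 5 comparisons, and the other 6 genes passed in at least 1. How reads that fit more than 1 paralogue, such as Ezh1 and Ezh2, Rbbp7 and Rbbp4, or Kdm6a and Uty, were assigned is not given in the sources used here. Uty was listed at 0 in all 8 libraries.

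In hypoxic differentiation medium, replicate B exceeded replicate A in 7 of the 10 genes, by 5.24-fold for Phf19, 2.54-fold for Ezh2, 1.40-fold for Suz12, 1.38-fold for Eed, 1.26-fold for Mtf2 and 1.25-fold for Rbbp7. Ezh1 (0.808-fold), Kdm6b (0.842-fold) and Jarid2 (0.734-fold) were lower in replicate B, and Kdm6a differed by 1.05-fold. The median difference, replicate B minus A in log2(FPKM + 1), was 0.30 for the 10 genes and 0.09 over all tested genes. The summed level of 20 proliferation genes, among them Mki67 and Mcm7, was 240.2 FPKM in replicate A and 755.8 FPKM in replicate B, and 20 of 20 were higher in replicate B. Mki67 itself had 3.46 and 23.6 FPKM. In the other groups the sum was 550.0 and 552.2 FPKM in growth medium at 21% oxygen, 370.6 and 341.1 FPKM there at 2% oxygen, and 179.0 and 188.3 FPKM in differentiation medium at 21% oxygen. Ezh2 took the same rank as this sum in 8 of 8 libraries, from lowest to highest. Within replicate pairs that order rests on small gaps, such as 7.069 and 7.077 FPKM of Ezh2 in normoxic differentiation medium. How many of all tested genes take this order was not counted. For Phf19 the 3 highest and the 3 lowest libraries were those of the sum, in another order. The library with the highest sum had the lowest Ezh1, while the normoxic growth libraries, next in the sum, had the highest Ezh1 (39.8 and 35.9 FPKM). Over the 8 libraries the Spearman (rank) correlation of Ezh1 with the sum was 0.21. The proliferation list counted 14 of 20 genes lower and 0 higher with differentiation medium in normoxia (median -1.81), beside 41% of all genes called lower. With hypoxia in differentiation medium 6 of 20 were higher and 0 lower, beside 37.5% of all genes called higher. The part of these genes in the changes of Ezh2 and Phf19 was not tested. For the oxygen contrast, all 8 hypoxia-response genes (such as Egln3 and Car9) rose in growth medium and 7 of 8 in differentiation medium, beside 13.5% and 37.5% of all genes called higher.

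**Figure D4:**
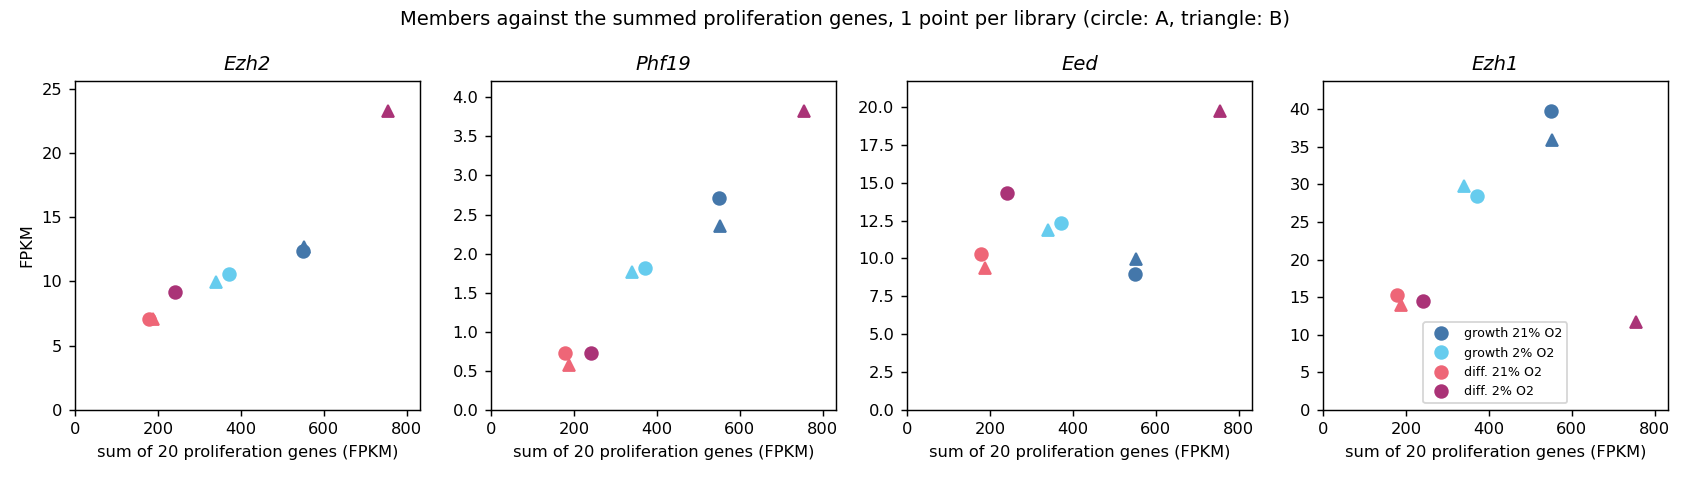
FPKM of Ezh2, Phf19, Eed and Ezh1 (vertical axes from 0) against the summed FPKM of 20 proliferation genes in each of the 8 libraries. Ezh2 follows the order of the sum in all 8 libraries, from 7.07 FPKM at 179.0 to 23.3 FPKM at 755.8, while Ezh1 does not. How many other genes follow this order was not counted.

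Genes related to the members were taken from fixed lists of other PRC2 cofactors, other demethylases, the complex that contains Kdm6a, and H3K27 acetyltransferases. Of 6 tested PRC2 cofactors, 3 were higher and 2 lower with differentiation medium in normoxia, 1 and 1 in hypoxia, 1 and 1 with hypoxia in growth medium, and 2 and 3 with hypoxia in differentiation medium. Over all tested genes the shares called in either direction were 66.5%, 40.9%, 41.4% and 65.2%. Phf1, a Polycomb-like subunit, had the largest change of the 6 in both medium comparisons and with hypoxia in differentiation medium. It had 35.7 and 29.8 FPKM at 21% oxygen and 41.0 and 42.1 FPKM at 2% oxygen in growth medium, against 10.3 and 7.53 FPKM at 21% oxygen and 24.3 and 20.7 FPKM at 2% oxygen in differentiation medium. It was lower in differentiation medium at 21% oxygen with a log2 change of -1.78 ± 0.16 SE (adjusted p = 0.0001) and at 2% oxygen with one of -0.86 (adjusted p = 0.00674), and its interaction of 0.92 (adjusted p = 0.0132) was 0.62 with median-of-ratios scaling (adjusted p = 0.0809). Rbbp4, the paralogue of Rbbp7, was lower in hypoxia in both media (-0.45 and -0.35, adjusted p = 0.0069 and 0.0103). Aebp2, another DNA-binding cofactor, was higher with hypoxia in growth medium (0.66, adjusted p = 0.0222). Of the other demethylases, Kdm7a was higher with differentiation medium in normoxia (0.49, adjusted p = 0.0345) and lower with hypoxia in differentiation medium (-0.80, adjusted p = 0.00459). Phf8, the other one tested, was called in the opposite direction in both (-0.32, adjusted p = 0.0345, and 0.40, adjusted p = 0.0149), and neither Phf8 call was kept with median-of-ratios scaling (adjusted p = 0.419 and 0.0787). The 9 genes of the KMT2C/KMT2D complex that contains Kdm6a showed 2 higher and 2 lower with differentiation medium in normoxia, and 1 higher and 2 lower with hypoxia in differentiation medium, beside 66.5% and 65.2% of all genes called in either direction. The acetyltransferases Ep300 and Crebbp, which modify the same lysine, passed for hypoxia in differentiation medium (0.31 and 0.48, adjusted p = 0.0299 and 0.0177), but not with median-of-ratios scaling (adjusted p = 0.33 and 0.0948).

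Genes whose pattern over the 8 libraries lay closest to a member were found by the root mean square difference of log2(FPKM + 1) after centring, among 8826 tested genes with a mean of at least 5 FPKM. For Ezh2 they were Rgs12 (0.077), Vps37b (0.119), Ptpn14 (0.125), Mcm7 (0.126) and Cpped1 (0.131). For Ezh1 they were Plekha5 (0.120), Mpst (0.129), Prkd3 (0.130), Acbd4 (0.130) and Steap2 (0.134). For Kdm6b they were Fzd7 (0.089), Snx18 (0.093), N4bp1 (0.107), Cdc42ep3 (0.126) and Rpl38 (0.131), and for Phf19 they were Ctc1 (0.135), Ethe1 (0.157), Bok (0.164), Pkmyt1 (0.169) and Plk4 (0.179). Mcm7 is also on the proliferation list.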

How the data were processed

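RNA-seq of C2C12 gave 8 libraries, 2 in each of 4 groups, taken from the labels' medium, oxygen level and replicate letter. Reads were processed by the authors with STAR 2.5.1b and Cufflinks 2.2.1 on mm9, per the submitters' processing notes, and the deposited values are FPKM per gene. The annotation, the use of strand and any scaling between libraries are not given in the sources used here. Genes whose mean reached 1 FPKM in any group were tested (12389 of 24043, of which 17914 were above 0), as log2(FPKM + 1), with limma 3.58.1 (R 4.3.3) and an intensity trend, over all 8 libraries and 5 contrasts. Tests were two-sided, with Benjamini-Hochberg adjustment over all tested genes and a threshold of 0.05; 4 residual and 2.61 prior degrees of freedom stood behind each. Fold values are ratios of mean FPKM, while log2 changes are differences in mean log2(FPKM + 1), so a fold and its log2 change need not match. The Ezh1 to Ezh2 ratio was tested with an exact permutation test over libraries. For its interaction, medium labels were shuffled within each oxygen level, which does not test the interaction itself. Alternatives were another pseudocount (0.1), no filter, median-of-ratios and upper-quartile scaling, a replicate block, robust moderation, array weights, only the libraries compared, and each replicate left out. Leaving out a replicate leaves 1 library in its group, so the spread of that group does not enter that fit. The fit was tested on simulated data. All 10 members were named in every contrast; of other H3K27 genes any could be named, of the proliferation and hypoxia lists up to 4 per contrast with the largest called change, and for 4 members the 5 nearest genes in pattern. Mki67, Mcm7, Egln3, Car9, Myog and Ckm were named as list examples outside that rule, after their values were seen. The members and lists were chosen with earlier results of these data known. Replicates of one letter did not deviate together between groups (correlations of -0.166 to 0.042), so the letters were not treated as pairs.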

Additional observations from a re-analysis of the deposited data

Results flagged for a closer look

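Kdm6b was singled out because the test of the difference itself, the medium by oxygen interaction, passed its threshold in limma. Of all tested genes 54.1% passed it too. The absolute interaction of Kdm6b was at least as large as that of 59.7% of them. The interaction was -0.79 on the log2 scale: differentiation medium raised Kdm6b by 0.47 at 21% oxygen, whereas at 2% oxygen the change was -0.33. The call at 2% oxygen was kept in only 3 of 16 alternatives. Its libraries were at 20.2 and 20.7 FPKM in normoxic growth medium and at 35.9 and 38.5 FPKM in hypoxic growth medium. The cause was not tested.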

How the results depend on the processing

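Of 13 calls among the 10 genes, 8 were kept under every alternative and 5 were lost in some: Jarid2 in both comparisons that called it, Kdm6b for medium in hypoxia, Ezh1 for hypoxia in growth medium and Ezh2 for hypoxia in differentiation medium. For medium in normoxia, 3 genes were called, but 6 with median-of-ratios scaling (5 of them higher), 6 with array weights, 5 with only the libraries compared and 2 to 5 with a replicate left out. For medium in hypoxia the count of 2 became 1 without the filter, with array weights and with only the libraries compared, and 1 to 8 with a replicate left out. For hypoxia in growth medium the count of 3 became 5 with only the libraries compared and 2 to 6 with a replicate left out. For hypoxia in differentiation medium the count of 4 became 2 without the filter or with only the libraries compared, and 2 to 6 with a replicate left out. The interaction count of 1 became 2 with median-of-ratios scaling, 3 with array weights and 1 to 5 with a replicate left out, and the interaction of the log2 ratio ranged from -1.79 to -0.25. The replicate letters were not treated as pairs, and the labels do not say whether samples of one letter were handled together. With a replicate block the 5 counts were 2, 1, 3, 3 and 1. Each fit with a replicate left out has 1 library in that replicate's group, so its count does not measure the spread there. The cause of these shifts was not tested.

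None of the called changes reversed; the values that changed sign were all uncalled in the fit reported. For medium in normoxia, Eed ran from -0.017 to 0.12 with a replicate left out. For medium in hypoxia, Kdm6a was -0.0064 and -0.012 with median-of-ratios and upper-quartile scaling, Jarid2 -1.1e-05 and -0.0052, and Phf19 -0.0014 with upper-quartile scaling and -0.068 with a pseudocount of 0.1; with a replicate left out, Ezh2 ran from -0.15 to 1.11, Jarid2 from -0.16 to 0.24 and Phf19 from -0.69 to 0.79. For hypoxia in growth medium the same scalings gave Kdm6a 0.091 and 0.16, Jarid2 0.021 and 0.094 and Mtf2 0.059 and 0.13, and leaving out a replicate gave -0.21 to 0.18, -0.18 to 0.010 and -0.21 to 0.13. For hypoxia in differentiation medium, Kdm6b was -0.16 with median-of-ratios scaling and -0.081 to 0.16 with a replicate left out. For the interaction, median-of-ratios scaling gave Ezh1 -0.10, Suz12 -0.054 and Rbbp7 -0.20, upper-quartile scaling gave Rbbp7 -0.088, and leaving out a replicate gave Rbbp7 -0.035 to 0.28. Median-of-ratios scaling moved the median of all genes from -0.20 to 0.03 for medium in normoxia, from -0.14 to -0.04 for hypoxia in growth medium, from 0.15 to -0.03 for hypoxia in differentiation medium and from 0.27 to -0.01 for the interaction. The share of higher genes among all calls moved with it from 38.4% to 53.6%, from 32.6% to 43.4% (52.1% with upper-quartile scaling), from 57.5% to 46.5% and from 65.5% to 47.3% (54.6% with upper-quartile scaling). Absolute depth is unknown, so no counting limit can be given.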
